A study of Mus musculus with 2 samples.

Results

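The histone methyltransferase gene Dot1l and 7 genes for its complex partners (Mllt1, Mllt3, Mllt6, Mllt10, Aff1, Aff3 and Aff4) were followed through the cell classes of the embryonic mouse forebrain. The 8 genes were taken by symbol from the 32285 genes of the count tables, and each symbol matched 1 row. Expression was measured by droplet-based single-cell RNA sequencing (10x Genomics 3' chemistry), in which each captured mRNA is counted once through its unique molecular identifier (UMI). Both libraries were wild-type (WT) at embryonic day 16.5, and the labels number them WT replicate 1 and WT replicate 6. The study crossed a conditional Dot1l allele to Emx1-Cre, a recombinase that is active in the dorsal telencephalic lineage. Per the published methods and legends the embryos were C57BL/6J, and whether the WT embryos carried Cre or the conditional allele is not given in the sources used here. The conditional knockout was not analysed here, so every comparison is between cell classes of WT tissue. The tissue was the dorsal telencephalon, labelled as brain hemispheres.

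DOT1L methylates a lysine in the globular core of histone H3, a mark that lies along the bodies of transcribed genes. It binds proteins first known as fusion partners of the MLL1 methyltransferase in leukaemia. Mllt1 (ENL) and its paralogue Mllt3 (AF9) encode YEATS-domain readers of acylated histones, and Mllt10 (AF10) and its paralogue Mllt6 (AF17) encode PHD-finger and leucine-zipper proteins that bind DOT1L. Aff1 and Aff4 encode scaffolds of the super elongation complex, which brings the kinase P-TEFb to paused RNA polymerase II and shares the ENL and AF9 subunits with the DOT1L complex. Aff3 belongs to the same scaffold family. In the developing cortex, radial glial cells (RGCs) divide along the ventricle and produce intermediate progenitors (IPCs), which divide into excitatory neurons, while interneurons arrive from the ganglionic eminences.

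Only cells of 1500 to 60000 UMIs entered, and mitochondrial transcripts had to stay under 10% of them, which kept 8139 of 14136 barcodes in replicate 1 and 8209 of 13046 in replicate 6, with a median of 6924 and 6664 UMIs. Together they held 133575 and 132852 UMIs of the 8 genes. Cells were then assigned to 13 classes by the number of marker genes detected, which placed 51.9% and 53.6% of them. A class name stands for cells that passed such a gate (RGC-like, IPC-like and so on), and each class is therefore a range of marker counts. RGCs numbered 265 and 275, IPCs 278 and 309, excitatory neurons 2119 and 2256, and interneurons 653 and 673. Of these, 29 and 30 RGCs, 112 and 127 IPCs, and 1019 and 1191 excitatory neurons held just the minimum number of their markers. The median RGC held 0 excitatory-neuron markers and the median IPC held 2, against 5 and 4 in excitatory neurons. Cells with striatal markers (225 and 177) and eminence progenitors (172 and 172) were present in both libraries, so the dissected tissue was not dorsal only. The median cell of every non-erythroid class carried 4 of the 7 erythroid markers, so free RNA was present. Erythroid cells, 71 and 110 in number, were used as the gauge of that background. Of these, 41 and 71 held just the minimum of 6 markers, and a further 593 and 599 cells fell 1 marker short. Whether the UMIs of the 8 genes in erythroid cells were free RNA was not tested. Their 22 and 76 Aff3 UMIs, for example, lay in only 11.3% and 8.18% of the cells. The erythroid level is therefore a rough gauge. The libraries shared 59 barcodes, of which 26 were kept in both. A chi-square comparison of their summed counts gave 22.9 per degree of freedom over 26576 genes. UMIs are clustered within cells, so this value cannot decide whether the samples were separate. The libraries were treated as separate samples by their replicate numbers.

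Levels are given as UMIs per 1000000 UMIs of all genes in the class (CPM), first for replicate 1 and then for replicate 6. Each gene is compared only with itself between classes. Cells with the highest doublet scores were kept in these levels. They made up 26.2% and 12.1% of fibroblasts, 17.3% and 31.1% of endothelial cells and 20.4% and 16.1% of mural cells. Their share was 16.7% and 18.2% in Cajal-Retzius cells, against 4.15% and 3.64% in RGCs. Their part in the class levels was not tested. The labels do not say whether the libraries came from separate litters or preparations.

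Dot1l (ENSMUSG00000061589, chr10:80755101-80795461 in mm10) was detected in every class at a low and narrow level. Eminence progenitors held 46.4 and 44.9 CPM, striatal neurons 39.6 and 46.5, and IPCs 44.5 and 39.9. These 3 classes stood at the top of the order and their libraries overlapped from one class to the next. Excitatory neurons held 39.3 and 38.2 CPM and interneurons 39.1 and 38.0, which overlapped each other and lay just below IPCs. Cajal-Retzius cells, endothelial cells, microglia, mural cells and oligodendrocyte precursor cells (OPCs) followed between 23.6 and 36.6 CPM, each overlapping its neighbour in the order. RGCs held 26.3 and 25.2 CPM, from 69 and 68 UMIs, and were below every other neural class. The nearest of these, OPCs at 28.8 and 26.5 CPM, rested on only 9 and 7 UMIs. No difference between RGCs and OPCs is therefore read. Fibroblasts were lower still, with 22.8 and 16.7 CPM. The erythroid background was 4.18 and 8.09 CPM, from 2 and 6 UMIs. Leaving out erythroid cells, the highest class mean of Dot1l was 2.31 times the lowest.

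**Figure D1:**
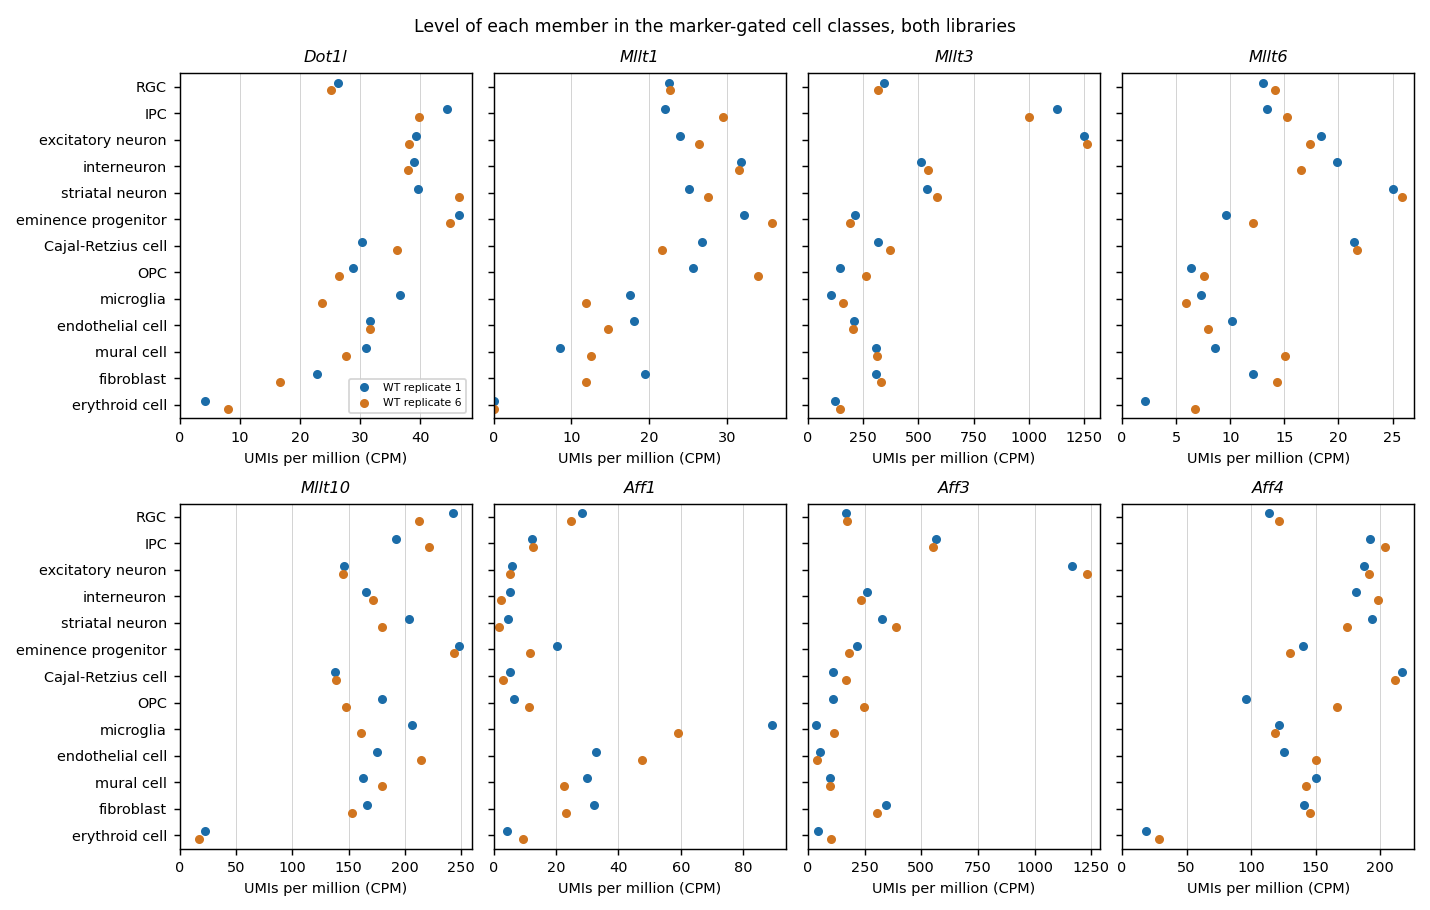
Level of each of the 8 genes in CPM (horizontal axis, a separate linear scale for each gene) in the 13 marker-gated classes (vertical axis). Each point is 1 library. Mllt3 and Aff3 lie above 1000 CPM in excitatory neurons, Aff1 is highest in microglia at 89.4 and 59.1 CPM, and Dot1l stays between 16.7 and 46.5 CPM outside erythroid cells.

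The reader genes Mllt3 and Mllt1 had different profiles. Mllt3 (ENSMUSG00000028496, chr4:87769925-88033407) spans 263 kb and has 2 annotated promoters in RefSeq, an outer one at the start of the gene and an inner one within it. The upstream bases are shown because Mllt3 and Aff3 were called together in 4 of the comparisons that follow. The 250 bases before each start (RefSeq sequence, GRCm38.p6, the same build as mm10, minus strand, 5′ to 3′) read as follows, with matches to the proneural E-box motifs CAGATG or CAGCTG on either strand in capitals.
Mllt3 outer promoter, chr4:88033408-88033657: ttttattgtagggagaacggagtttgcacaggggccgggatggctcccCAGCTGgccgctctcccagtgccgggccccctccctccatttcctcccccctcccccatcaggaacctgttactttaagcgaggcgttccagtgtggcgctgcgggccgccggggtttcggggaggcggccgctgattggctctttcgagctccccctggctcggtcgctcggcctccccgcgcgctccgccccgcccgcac
Mllt3 inner promoter, chr4:87806324-87806573: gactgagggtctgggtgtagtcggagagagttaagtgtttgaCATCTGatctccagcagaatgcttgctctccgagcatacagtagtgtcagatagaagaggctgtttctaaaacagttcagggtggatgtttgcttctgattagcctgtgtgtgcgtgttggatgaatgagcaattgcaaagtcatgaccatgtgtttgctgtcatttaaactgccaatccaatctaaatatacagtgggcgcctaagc
Aff3 inner promoter, chr1:38627245-38627494: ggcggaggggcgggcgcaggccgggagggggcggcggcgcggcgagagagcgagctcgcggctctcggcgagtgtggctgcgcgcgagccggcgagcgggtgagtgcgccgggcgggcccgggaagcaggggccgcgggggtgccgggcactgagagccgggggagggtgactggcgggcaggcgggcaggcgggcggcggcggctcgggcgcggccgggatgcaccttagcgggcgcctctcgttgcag
The outer Mllt3 sequence held 1 CAGCTG at position -202 from the start, and the inner one held 1 CAGATG, read on the other strand as CATCTG, at position -208. The Aff3 start listed in the RefSeq promoter table lies within the gene's annotated span (chr1:38175393-38630178), so these bases are not those before its outer end, which were not analysed here. This inner Aff3 sequence held neither motif. Within 300-base windows around the start, CAGATG was present in 17.2% and CAGCTG in 16.3% of 32851 annotated promoters, so both are common. G and C made up 69.2% of the outer Mllt3 sequence, 45.2% of the inner one and 82.0% of the Aff3 sequence, with 23, 4 and 41 CpG dinucleotides. The motifs were chosen after the expression values were known, and a match is a description of the letters and not of a bound site. A further 11 motifs were searched on both strands in the same windows. TTTCCCGC, TTTGGCGC and GCGGGAA, the letters of E2F sites, occurred in none of the listed promoters of the 8 genes, against 1.07%, 0.514% and 4.6% of all promoters, and neither did TGACTCA (5.2%) or TGACGTCA (1.79%). GGGCGG was present in a promoter of every member except Aff4 and in 35.7% of all promoters. CCAAT (37.4% of all promoters) matched Mllt1, Mllt3 and Mllt10, CCGGAAG (8.86%) matched Dot1l and Mllt1, TGCGCA (7.76%) matched Aff1 and Mllt10, TTTGAA (17.9%) matched Mllt10, and CACGTG (7.15%) matched Aff4.

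Mllt3 was highest in excitatory neurons, at 1250 and 1265 CPM, from 27110 and 26336 UMIs. IPCs followed with 1128 and 1000 CPM, and the libraries of these classes did not overlap. Striatal neurons (540 and 583 CPM) and interneurons (511 and 541 CPM) overlapped each other and lay far below. RGCs, at 343 and 317 CPM, overlapped Cajal-Retzius cells above and fibroblasts below. Eminence progenitors, the ventral dividing cells, held 213 and 191 CPM. Microglia (104 and 159 CPM) lay across the erythroid level of 121 and 147 CPM, so the 2 classes were not told apart. Among excitatory neurons, cells gated on upper-layer markers held 1396 and 1355 CPM and cells gated on deep-layer markers held 714 and 775 CPM. Mllt1 (ENSMUSG00000024212, chr17:56892608-56935509) moved over a narrow range outside erythroid cells, from 8.57 CPM in mural cells to 35.8 CPM in eminence progenitors. It held 22.5 and 22.6 CPM in RGCs, 22.0 and 29.5 in IPCs, 23.9 and 26.4 in excitatory neurons and 31.8 and 31.5 in interneurons. Erythroid cells held 0 Mllt1 UMIs in both libraries, which allows up to 6.28 and 4.04 CPM. Because both readers were counted in the same sums, their ratio needs no scaling between libraries. There were 15.2 and 14.0 Mllt3 UMIs for each Mllt1 UMI in RGCs, 51.2 and 33.9 in IPCs, 52.2 and 47.9 in excitatory neurons, 16.1 and 17.2 in interneurons, and 6.61 and 5.34 in eminence progenitors. The ratio compares classes and does not give the relative abundance of the 2 mRNAs, since gene length and priming can differ in their capture.

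The paralogues Mllt10 and Mllt6 both had UMIs in all classes. Mllt6 stood at 2.09 and 6.74 CPM in erythroid cells, and microglia (7.32 and 5.91 CPM) overlapped that background, while OPCs (6.40 and 7.57) rested on 2 UMIs in each library and overlapped it too, so no expression is read from either. Mllt10 (ENSMUSG00000026743, chr2:18055160-18212390) was highest in eminence progenitors, at 248 and 243 CPM. RGCs held 242 and 213 CPM and IPCs 192 and 221, with overlapping libraries, and excitatory neurons held 146 and 145. Only Cajal-Retzius cells, at 138 and 139 CPM, and erythroid cells, at 23.0 and 17.5, lay lower than excitatory neurons. Mllt6 (ENSMUSG00000038437, chr11:97663122-97685461) was sparsely counted, with 34 and 38 UMIs in RGCs and 34 and 41 in IPCs. It was highest in striatal neurons (25.1 and 25.8 CPM) and Cajal-Retzius cells (21.5 and 21.7 CPM), and held 18.4 and 17.3 CPM in excitatory neurons and 13.0 and 14.1 in RGCs. The Mllt10 to Mllt6 ratio was 18.7 and 15.1 in RGCs, 14.4 and 14.5 in IPCs, 7.92 and 8.38 in excitatory neurons and 25.8 and 20.1 in eminence progenitors.

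The AFF scaffold genes each had a profile of their own. Aff3 (ENSMUSG00000037138, chr1:38175393-38630178, spanning 455 kb) was highest in excitatory neurons, at 1166 and 1230 CPM, and IPCs held 563 and 551. Striatal neurons (326 and 388 CPM) overlapped fibroblasts (345 and 305 CPM), and interneurons held 260 and 234. RGCs held 166 and 172 CPM, within the range of OPCs (109 and 246 CPM). Endothelial cells (54.2 and 38.4 CPM) and microglia (36.6 and 115 CPM) overlapped the erythroid background of 46.0 and 102 CPM. Upper-layer neurons held 1391 and 1384 CPM of Aff3 and deep-layer neurons 583 and 661. Aff1 (ENSMUSG00000029313, chr5:103692362-103855322) ran the other way among neural cells. Microglia held the most Aff1, 89.4 and 59.1 CPM from 61 and 40 UMIs, followed by endothelial cells with 32.8 and 47.4 CPM. RGCs held 28.3 and 24.9 CPM, in the range of fibroblasts and mural cells. IPCs held 12.2 and 12.7 CPM, and excitatory neurons 5.81 and 5.14. Excitatory neurons, interneurons, striatal neurons and Cajal-Retzius cells, at 1.72 to 5.81 CPM, lay at or below the upper end of the erythroid background of 4.18 and 9.43 CPM. That background rested on only 2 and 7 UMIs, against 126 and 107 UMIs in excitatory neurons. In replicate 1 excitatory neurons lay above it, at 5.81 against 4.18 CPM. Aff1 in neurons was thus not separated from this sparse background, and its absence is not shown. Aff4 (ENSMUSG00000049470, chr11:53350640-53421830) was lowest among neural classes in RGCs, with 114 and 122 CPM, apart from a value of 96.1 in OPCs of replicate 1. It held 192 and 204 CPM in IPCs, 187 and 191 in excitatory neurons and 181 and 198 in interneurons, where the interneuron range overlapped both of the others, and 217 and 211 in Cajal-Retzius cells. For each Aff4 UMI there were 1.46 and 1.42 Aff3 UMIs in RGCs, 2.93 and 2.71 in IPCs and 6.23 and 6.43 in excitatory neurons. The corresponding Aff1 values were 0.248 and 0.204, then 0.0634 and 0.0623, then 0.031 and 0.0269.

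A similar order was seen per cell when each cell was thinned at random to 1500 UMIs. An Mllt3 UMI was then found in 33.6% (Wilson 95% interval 28.2 to 39.5) and 36.7% (31.2 to 42.6) of RGCs and in 78.4% (73.2 to 82.8) and 72.2% (66.9 to 76.9) of IPCs, against 15.5% and 13.6% of erythroid cells. The share in excitatory neurons was 75.1% (73.2 to 76.9) and 75.4% (73.5 to 77.1), so IPCs and excitatory neurons were close by this measure. For Aff3 the shares were 19.2% and 18.5% in RGCs, 47.8% and 48.2% in IPCs and 75.7% and 77.8% in excitatory neurons, against 7.04% and 4.55% in erythroid cells. Dot1l was found in 5.28% and 2.18% of thinned RGCs, 6.83% and 5.5% of IPCs and 5.95% and 6.47% of excitatory neurons, shares too low at this depth for a difference to be read from them. Aff1 was found in 13.1% (7.47 to 21.9) and 6.25% (2.9 to 13.0) of thinned microglia and in 0.897% and 0.709% of thinned excitatory neurons. For erythroid cells the Aff1 share was 0 of 71, which allows up to 4.23%, and 0.909%. Without thinning, the Dot1l shares were 22.6% and 20.4% in RGCs and 30.6% and 27.8% in IPCs, against 2.82% and 4.55% in erythroid cells. Median depths were 9606 and 9276 UMIs in RGCs, 8719 and 8298 in IPCs, and 5408 and 5702 in erythroid cells. Intervals cover counting error only.

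**Figure D2:**
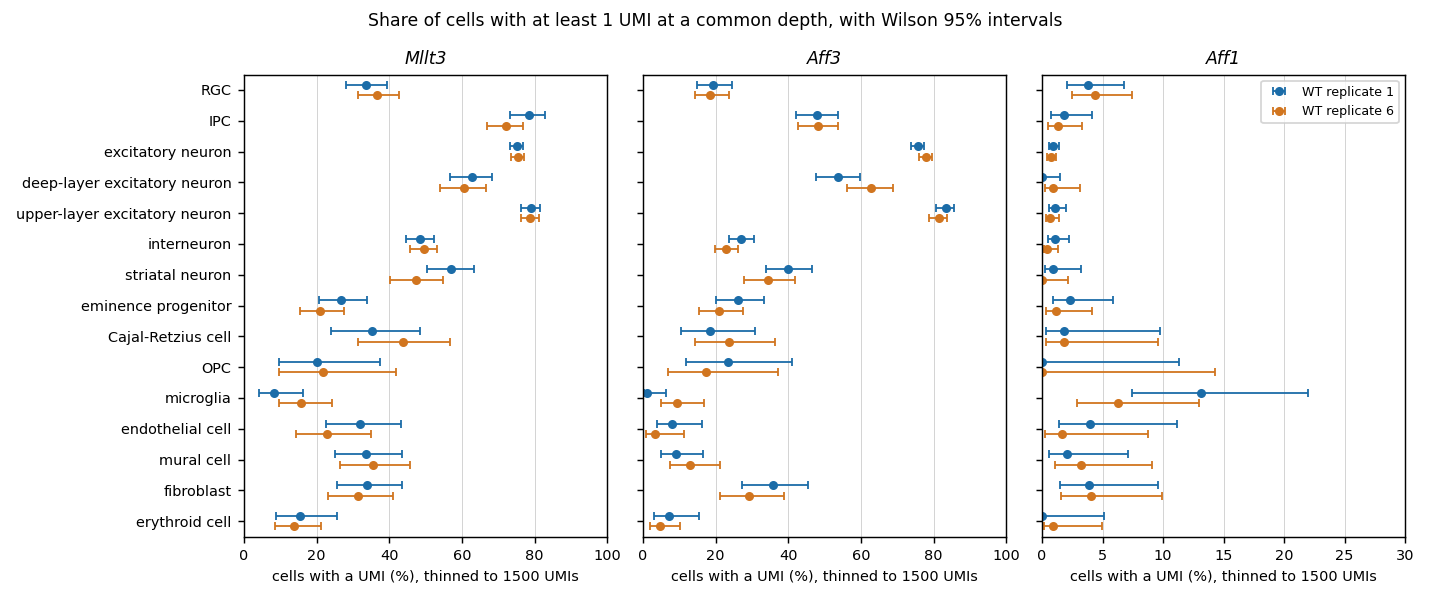
Share of cells with at least 1 UMI of Mllt3, Aff3 and Aff1 (horizontal axis, percent, to 100 for Mllt3 and Aff3 and to 30 for Aff1) after thinning every cell to 1500 UMIs, by class (vertical axis). Points are libraries and bars are Wilson 95% intervals. The Aff3 share steps up from 19.2% and 18.5% in RGCs to 47.8% and 48.2% in IPCs and 75.7% and 77.8% in excitatory neurons.

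The first comparison set RGCs against IPCs, the step from the primary to the secondary progenitor. Dot1l, Mllt3, Aff3 and Aff4 were lower in RGCs and Aff1 was higher, each in both libraries. All 8 members passed the filter on low counts, and 5 of them were called (edgeR quasi-likelihood test, adjusted p under 0.05), where 42.8% of all 12132 genes tested were called. The median log2 difference of the 8 members was -0.52, against -0.01 over all genes. Mllt3 was 3.39-fold lower in RGCs (log2 difference -1.76 ± 0.12 SE, adjusted p = 2.9e-07), with single-library differences of -1.79 and -1.73 in replicates 1 and 6. Aff3 was 3.46-fold lower (-1.79 ± 0.11, adjusted p = 1.35e-07). Aff4 was 1.77-fold lower (-0.82 ± 0.10, adjusted p = 4.94e-05). Dot1l itself was 1.72-fold lower in RGCs (-0.78 ± 0.17, adjusted p = 0.00266), with -0.83 in replicate 1 and -0.73 in replicate 6. Aff1 was 2.02-fold higher (1.02 ± 0.22, adjusted p = 0.00264). Mllt1 (-0.26 ± 0.20), Mllt6 (-0.16 ± 0.25) and Mllt10 (0.07 ± 0.12) were not called, and the single-library differences of Mllt10 had opposite signs. With DESeq2 in place of edgeR, Dot1l and Aff1 missed the threshold at adjusted p = 0.0536 and 0.0507.

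Since the median IPC carried 2 excitatory-neuron markers, the comparison was repeated with the 73 of 278 and 78 of 309 IPCs that had at most 1, an alternative added after the data were seen. In these IPCs Mllt3 stood at 881 and 719 CPM, Aff3 at 360 and 342, Aff4 at 166 and 179, Dot1l at 48.1 and 46.1 and Aff1 at 9.95 and 4.93, the last from 6 and 3 UMIs. The same 5 members were called in the same directions. The log2 differences were -1.32 for Mllt3, -1.09 for Aff3, -0.59 for Aff4, -0.91 for Dot1l and 1.79 for Aff1, with 2397 genes called. The differences of Mllt3 and Aff3 were thus smaller than with all IPCs. The estimates for Dot1l and Aff1 were larger, but rested on 29 and 28 UMIs and on 6 and 3 UMIs in these IPCs. No test was run between the nested sets of IPCs, so no change is read for Dot1l and Aff1. Among non-cycling cells alone Aff1 differed by 1.58 between RGCs and IPCs, and among cycling cells alone by 0.46 with an adjusted p of 0.491, so its call was lost there.

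**Figure D3:**
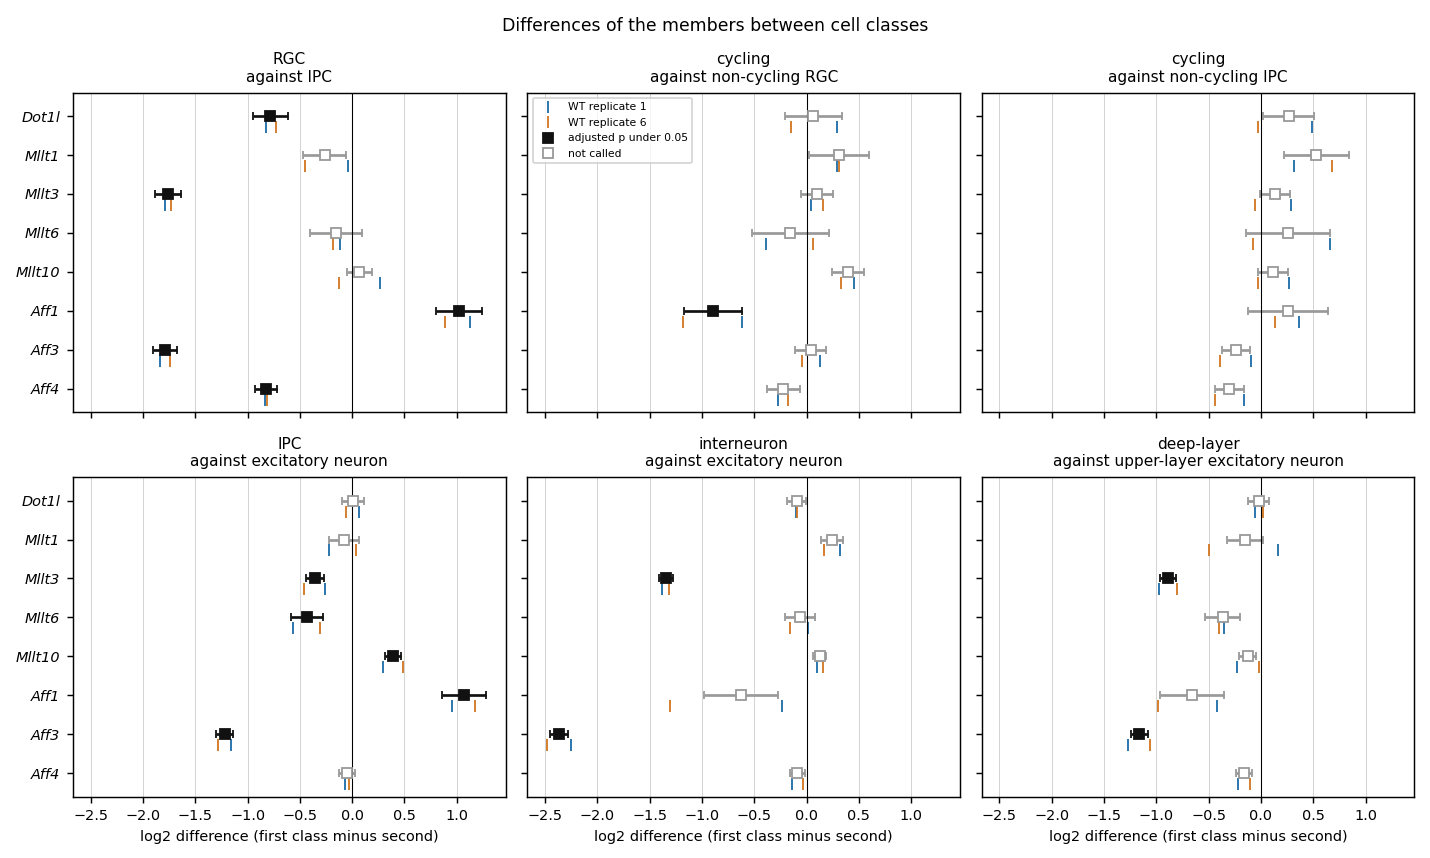
Log2 difference of each member (horizontal axis, first named class minus second) in the 6 comparisons. Squares with bars are the edgeR estimate and its standard error, filled where the adjusted p was under 0.05, and ticks are the single-library differences. Mllt3 and Aff3 are called in 4 of the 6 panels and lie left of 0 in each of them, while Dot1l is called only between RGCs and IPCs.

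The next pair of comparisons asked whether the members differed between progenitors with and without detected UMIs of proliferation genes. Progenitors were split by their summed UMIs of Mki67 and Top2a, 2 genes of proliferating cells, with at least 2 UMIs for cycling cells and 0 for non-cycling cells, and cells with just 1 (39 and 37 RGCs, 22 and 33 IPCs) were left out. This gave 112 and 122 cycling RGCs against 114 and 116 non-cycling ones. The name non-cycling stands only for cells without a detected UMI of either gene. Whether such cells had stopped dividing was not tested. Cycling RGCs were deeper, with medians of 10960 and 10669 UMIs against 8399 and 8684. Dot1l stood at 28.8 and 25.1 CPM in cycling and 23.8 and 28.7 CPM in non-cycling RGCs, so the libraries overlapped (log2 difference 0.07 ± 0.27, adjusted p = 0.918). Of the 8 members, all tested, 1 was called, where 14.1% of 10264 genes were called. That gene was Aff1, with 23.5 and 16.2 CPM in cycling and 36.8 and 38.7 CPM in non-cycling RGCs (-0.89 ± 0.28, adjusted p = 0.0455). The call rested on 31 and 22 against 34 and 39 UMIs and was lost in 8 of 13 alternatives, with adjusted p between 0.0113 and 0.446. It was lost when the cycling sum of replicate 6 (-0.64, adjusted p = 0.218), the non-cycling sum of replicate 1 (-0.90, 0.0856) or the non-cycling sum of replicate 6 (-0.86, 0.122) was left out. Mllt10 held 276 and 239 CPM in cycling and 204 and 196 CPM in non-cycling RGCs without overlap (0.39 ± 0.15, adjusted p = 0.112), and was called with the library as a block (adjusted p = 0.0249), where 2191 genes were called in place of 1448. Mllt3 (0.10 ± 0.15) and Aff3 (0.04 ± 0.15) had overlapping libraries. The median over the members was 0.05, against -0.01 over all genes.

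In IPCs, 56 and 53 cycling cells were set against 200 and 223 non-cycling ones. None of the 8 members was called by edgeR, with 0 at an unadjusted p under 0.05 and 0 called by DESeq2, where 19.8% of 9782 genes were called. Dot1l stood at 56.2 and 38.8 CPM in cycling and 41.7 and 40.5 CPM in non-cycling IPCs (0.26 ± 0.24). Aff3 held 506 and 438 CPM in cycling against 566 and 589 CPM in non-cycling IPCs (-0.24 ± 0.13, adjusted p = 0.239), and Aff4 172 and 160 against 201 and 223 (-0.30 ± 0.14, adjusted p = 0.157). Both were lower in cycling IPCs of each library without passing the test. When the cells with the highest doublet scores were left out, Aff3 passed the threshold (-0.42, adjusted p = 0.0469). Such cells made up 17.9% and 11.3% of cycling IPCs against 2.0% and 3.14% of non-cycling ones, and their part in the result was not tested. Cycling cells were also deeper, with medians of 11754 and 11219 UMIs against 8489 and 7924. The interaction test, which compared the cycling difference of RGCs with that of IPCs, called 0 of the 8 members, where 0.427% of 11000 genes were called (47 genes, or 252 with the library as a block, again with 0 members). At an unadjusted p under 0.05 it held 1 member, Aff1 (log2 difference of differences -1.07 ± 0.48, adjusted p = 0.435). The Aff1 difference was therefore not shown to be particular to RGCs.

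**Figure D4:**
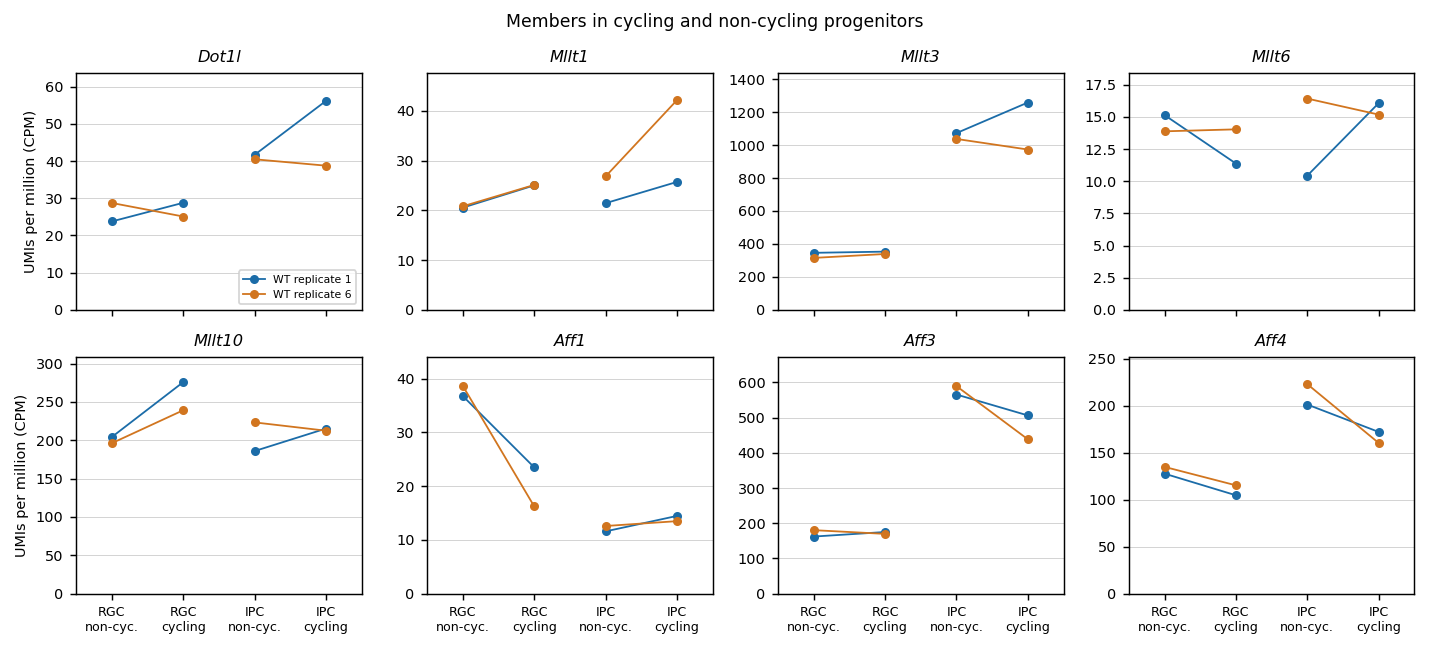
Level of each member (vertical axis, CPM, linear from 0, a separate scale for each gene) in non-cycling and cycling RGCs and IPCs (horizontal axis). Lines join the sums of 1 library. Aff1 falls from 36.8 and 38.7 to 23.5 and 16.2 CPM in RGCs, while the step between RGCs and IPCs exceeds the step between states for Mllt3 and Aff3.

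The fourth comparison set IPCs against excitatory neurons, and it shares the IPC sums with the first. Mllt3 and Aff3 were lower in IPCs and Mllt10 and Aff1 higher, while Dot1l did not pass the test (log2 difference 0.01 ± 0.10, adjusted p = 0.976). Of the 8 members, 5 were called, 3 lower and 2 higher in IPCs, where 48.5% of 14707 genes were called. Aff3 was 2.33-fold lower in IPCs (-1.22 ± 0.08, adjusted p = 2.59e-06), Mllt3 1.28-fold lower (-0.35 ± 0.09, adjusted p = 0.0088) and Mllt10 1.31-fold higher (0.39 ± 0.08, adjusted p = 0.0034). The excitatory class held more upper-layer cells (923 and 1036) than deep-layer cells (257 and 228). Deep-layer neurons held 714 and 775 CPM of Mllt3, below the 1128 and 1000 of IPCs, so the pooled direction did not hold for them. Their Aff3, at 583 and 661 CPM, lay just above the 563 and 551 of IPCs. No test was run between IPCs and either layer. Aff1 was higher in IPCs (1.07 ± 0.21, adjusted p = 0.00288), although its level in excitatory neurons lay within the range of the erythroid background. Mllt6 was at the threshold (-0.43 ± 0.16, adjusted p = 0.0474) and lost its call in 10 of 13 alternatives, including each time 1 of the 4 sums was left out (adjusted p 0.062 to 0.188). With the IPCs that had at most 1 excitatory-neuron marker, the Aff3 and Mllt3 differences widened to -1.97 and -0.86, Aff4 was called at -0.34, and Mllt10 (0.27, adjusted p = 0.0978), Mllt6 (-0.47, 0.299) and Aff1 (0.24, 0.749) were no longer called. The median over the members was -0.06, against -0.01 over all genes.

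Interneurons were compared with the same excitatory neuron sums. Mllt3 was 2.54-fold lower in interneurons (-1.35 ± 0.07, adjusted p = 2.75e-06) and Aff3 5.15-fold lower (-2.37 ± 0.08, adjusted p = 3.38e-07), and the other 6 members were not called. That is 2 of 8, where 41.5% of 15191 genes were called, with a median of -0.09 over the members and -0.02 over all genes. Dot1l differed by -0.10 ± 0.09 between the neuron classes (adjusted p = 0.437). Mllt1 (0.24 ± 0.11, adjusted p = 0.105) and Mllt10 (0.13 ± 0.06, adjusted p = 0.149) passed the threshold only when the TMM scaling was left out. Aff1 differed by -0.63 ± 0.35 from 18 and 7 UMIs in interneurons, and was called at -1.43 (adjusted p = 0.033) when the interneuron sum of replicate 1 was left out. Interneurons were the shallower cells, with medians of 4750 and 4362 UMIs against 9477 and 8418. Interneurons with markers of the medial eminence (194 and 226 cells) held 518 and 578 CPM of Mllt3 and 217 and 193 of Aff3. Those with caudal eminence markers (158 and 179 cells) held 479 and 473 CPM of Mllt3 and 310 and 283 of Aff3. No test was run between these groups, and no difference is read from 2 libraries each.

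The sixth comparison was between excitatory neurons with deep-layer markers (257 and 228 cells) and those with upper-layer markers (923 and 1036 cells). Both Mllt3 and Aff3 were lower in deep-layer neurons and no other member was called, 2 of 8, where 16.9% of 13142 genes were called. Mllt3 was 1.85-fold lower (-0.89 ± 0.07, adjusted p = 1.34e-04) and Aff3 2.24-fold lower (-1.16 ± 0.08, adjusted p = 4.65e-05). Dot1l held 36.7 and 39.6 CPM in deep-layer and 37.9 and 39.0 CPM in upper-layer neurons, with overlapping libraries (-0.02 ± 0.10). Deep-layer cells were deeper, with medians of 11692 and 10180 UMIs against 9482 and 8413. High doublet scores made up 7.78% and 5.26% of them, against 3.03% and 3.96% of upper-layer cells. The deep-layer gate allowed up to 3 upper-layer markers and the upper-layer gate up to 2 deep-layer markers. The members' median was -0.26, against -0.02 over all genes. With the library as a block 3414 genes were called in place of 2221, and the same 2 members. Leaving out the upper-layer sum of replicate 1 lowered that number to 1271 and leaving out that of replicate 6 to 1444, with both members still called.

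Mllt3 and Aff3 are long genes, and 3' libraries can hold reads primed within introns. Whether intronic reads were counted is not given in the sources used here. Genes spanning at least 200 kb were therefore described beside the members. Between RGCs and IPCs, 833 such genes had a median log2 difference of 0.04 (quartiles -0.85 and 0.99), with 297 called higher and 278 called lower in RGCs. Against excitatory neurons, their median was -0.43 in IPCs (908 genes) and 0.22 in interneurons (917 genes), and it was 0.26 in deep-layer against upper-layer neurons (862 genes). The median of the long genes thus did not share the direction of Mllt3 and Aff3 in interneurons and deep-layer neurons. It did share it in IPCs against excitatory neurons. Long genes were also spread more widely. At or below the Mllt3 difference lay 11.5% of them in interneurons, against 4.24% of genes under 200 kb. These shares were 8.35% and 2.32% in deep-layer neurons, and 12.2% and 3.21% between RGCs and IPCs. The part of gene span in the differences of Mllt3 and Aff3 was not tested. In cycling progenitors the long genes had medians of -0.30 in RGCs (743 genes) and -0.30 in IPCs (710 genes).

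The wider machinery was read from a list of 32 related genes, covering the super elongation complex and P-TEFb, the PAF1 complex, the enzymes that ubiquitylate histone H2B, MLL1 with menin, and further binding partners and YEATS proteins. Between RGCs and IPCs, 30 were tested, 1 was higher and 8 were lower in RGCs, with a median of -0.14. These 9 called genes of 30 stand beside 42.8% of all genes tested. Aff2, the remaining member of the scaffold family, was 3.73-fold lower in RGCs (39.7 and 34.9 against 139 and 126 CPM, adjusted p = 2.92e-07). Bcor, a polycomb-associated corepressor, was 2.1-fold lower (26.0 and 27.1 against 47.2 and 58.5 CPM), and Ube2b, a ubiquitin-conjugating enzyme for histone H2B, was 1.71-fold lower (147 and 165 against 245 and 264 CPM). The gene that was higher in RGCs was Larp7, which holds P-TEFb in an inactive RNA-protein particle (log2 difference 0.66).

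Between cycling and non-cycling cells, 3 of 29 related genes were called in RGCs and 3 of 28 in IPCs, beside 14.1% and 19.8% of all genes tested, and the genes were Larp7, Psip1 and Aff2 in each case. Larp7 was 2.07-fold higher in cycling RGCs (111 and 111 against 55.1 and 54.5 CPM) and 2.81-fold higher in cycling IPCs (96.4 and 92.7 against 29.6 and 40.0 CPM). Psip1, which tethers MLL1 and menin to chromatin, was 1.6-fold and 1.86-fold higher. Aff2 was lower in cycling cells of both classes, by a size that differed between the libraries. It held 31.1 and 19.9 CPM in cycling against 42.2 and 60.5 in non-cycling RGCs (-0.98 ± 0.27, with -0.42 in replicate 1 and -1.53 in replicate 6). In cycling IPCs it held 73.9 and 99.5 CPM against 152 and 138 (-0.70 ± 0.17, with -0.98 and -0.43). Against excitatory neurons, 9 of 31 related genes were called in IPCs, 6 higher and 3 lower, beside 48.5% of all genes tested. Aff2 was 5.22-fold lower in IPCs (139 and 126 against 637 and 639 CPM), Cbx8, a polycomb subunit that binds ENL and AF9, was 2.67-fold lower from only 14 and 11 UMIs in IPCs, and Larp7 was 1.67-fold higher. In interneurons 12 of 31 were called (41.5% of all genes), 7 higher and 5 lower than in excitatory neurons, led by the elongation factor gene Ell2 (3.67-fold higher, from 13 and 14 against 21 and 23 UMIs), Aff2 (2.91-fold lower) and Bcor (1.78-fold higher). Deep-layer and upper-layer neurons differed in 3 of 30 (16.9% of all genes), and Aff2 (2.75-fold lower in deep-layer neurons, 286 and 285 against 785 and 781 CPM) and Bcor (1.36-fold lower) were lower, while the PAF1 subunit gene Cdc73 was 1.52-fold higher. The median log2 difference of the related genes tested was 0.22 in cycling RGCs, 0.23 in cycling IPCs, 0.07 in IPCs against excitatory neurons, 0.0076 in interneurons against excitatory neurons and -0.13 in deep-layer against upper-layer neurons. The interaction test called 0 of the 29 related genes by edgeR, with 1 at an unadjusted p under 0.05.

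Profiles were finally compared across the 13 classes by Pearson's r of log2(CPM + 1), the mean of both libraries, among 8289 genes that were well counted in the neural classes. The classes share libraries and differ in depth and in free RNA, so r is given as a description. The genes most like Mllt3 were Tenm4 (r = 0.937), Cdh8 (0.893) and Kalrn (0.883). The genes most like Aff3 were Sema3a (0.905), Mllt3 itself (0.874) and Celf2 (0.854), and without erythroid cells r between Aff3 and Mllt3 was 0.859 over 12 classes. Aff1 was most like Apoe (0.954), Crlf3 (0.932) and Gng5 (0.917). Without erythroid cells r fell to 0.927 for Tenm4, 0.882 for Cdh8 and 0.862 for Kalrn with Mllt3. With Aff3 it fell to 0.896 for Sema3a and 0.836 for Celf2. With Aff1 it was 0.956 for Apoe, 0.931 for Crlf3 and 0.938 for Gng5. For the genes most like the remaining members r fell as well. Dot1l was most like Fam168b (0.977, or 0.888 without erythroid cells), Naa30 (0.977, 0.886) and Med23 (0.976, 0.892), and Mllt1 like Rrnad1 (0.99, 0.924), Pgam5 (0.989, 0.939) and Tra2a (0.989, 0.91). Mllt6 was most like Snap47 (0.96, 0.935), 4933424G05Rik (0.951, 0.938) and Zmym3 (0.948, 0.914). Mllt10 was most like Srrm1 (0.997, 0.958), Cdc73 (0.994, 0.918) and Zfp143 (0.994, 0.908), and Aff4 like H13 (0.987, 0.916), Trappc9 (0.982, 0.864) and Rbm5 (0.98, 0.85).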

How the data were processed

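The deposited files hold raw UMI counts per gene and cell for 2 WT libraries. Per the submitters' processing notes the authors used Cell Ranger 7.0.0 and mm10, and the deposited counts were not normalized. Doublets were kept unless stated, and the highest Scrublet scores (scanpy 1.11.5, 0.8% per 1000 cells) were left out as an alternative. For each class the UMIs of a library were added up, so that a class had 2 sums, and classes were compared by edgeR 4.0.16 (R 4.3.3, quasi-likelihood test, TMM scaling, filterByExpr, two-sided), with Benjamini-Hochberg adjustment over all genes tested and a threshold of 0.05. P-values rest on the spread between these 2 libraries, which may be technical, with estimates of spread shared across genes. Single-library differences used a prior count of 0.5. Alternatives were DESeq2 1.42.0, other scaling, no filter, the library as a replicate block, each sum left out in turn, stricter cell filters (3000 to 30000 UMIs and under 5% mitochondrial UMIs) and 1 more marker. Both classes of a library come from the same tissue, so libraries pair the sums, and the deviations of same-library sums correlated at r = 0.175 to 0.293. The main fits held no library term and so did not use this pairing. The library total was 74930397 and 68964234 UMIs. Gene positions and promoters are RefSeq's on GRCm38.p6, matched by symbol for all 8 members. Gate thresholds were set after marker counts were seen, and the members and gene lists were chosen with earlier results of these data known. In each comparison the text names up to 3 related genes with the largest log2 difference among those called with at least 10 UMIs in every sum and the same direction in both libraries. Larp7 between RGCs and IPCs was named after its value was seen. The 3 most alike genes came from genes with at least 20 UMIs in each sum of RGCs, IPCs, excitatory neurons and interneurons and a mean of at least 10 CPM.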

Additional observations from a re-analysis of the deposited data

How the results depend on the processing

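Of 56 member differences, 15 were called, and none of these changed sign under any alternative run. Of the 15, 9 were called under every alternative: Mllt3 and Aff3 in their 4 comparisons each, and Aff4 between RGCs and IPCs. Of the 41 that were not called, 6 were called under at least 1 alternative. The cause of the changes below was not tested. With DESeq2, 3 members and 3065 genes were called between RGCs and IPCs, 0 members and 584 genes between cycling and non-cycling RGCs, 941 genes between cycling and non-cycling IPCs, and 1443 between deep-layer and upper-layer neurons. With the library as a replicate block, 2 members and 2191 genes were called between cycling and non-cycling RGCs, 3414 genes between layers and 252 in the interaction test, and the block changed no other call of a member. In cycling against non-cycling RGCs, 0 members were called without the filter on low counts, with 3000 to 30000 UMIs, with 1 more marker, with both Mki67 and Top2a required, and after thinning to 1500 UMIs, where Aff1 was not tested, fewer counts remained and 224 genes were called (279 in IPCs). Leaving out the highest doublet scores gave 1 member in cycling against non-cycling IPCs. Leaving out TMM scaling gave 4 members between interneurons and excitatory neurons, and moved the median of all genes between IPCs and excitatory neurons from -0.01 to 0.10. IPCs with at most 1 excitatory-neuron marker, an alternative chosen after the data were seen, gave 2397 genes against RGCs, and 3 members and 4731 genes against excitatory neurons. Cycling RGCs and IPCs alone differed in 2221 genes.

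The sign reversals concerned differences that were not called. Between RGCs and IPCs, Mllt6 (0.055) and Mllt10 (-0.081) reversed in non-cycling cells. Between cycling and non-cycling RGCs, Dot1l reversed without high doublet scores (-0.0046) and with 1 more marker (-0.051), and Mllt3 (-0.22) and Aff3 (-0.33) after thinning. Between cycling and non-cycling IPCs, Mllt1 (-0.038) and Aff1 (-0.10) reversed with 1 more marker, and Mllt10 (-0.10) and Aff4 (0.12) after thinning. Between IPCs and excitatory neurons, Mllt1 (0.037) and Aff4 (0.066) reversed without TMM scaling, and Dot1l without the filter (-0.072) and with 3000 to 30000 UMIs (-0.017). Between interneurons and excitatory neurons, Mllt6 (0.029) and Aff4 (0.0031) reversed without TMM scaling, and Mllt6 with 3000 to 30000 UMIs (0.069). When each sum was left out in turn, with the lone sum assumed to vary like the other class, the count of members called between cycling and non-cycling RGCs ran from 0 to 1, and the genes called between layers from 1271 to 2242 (1444 without the upper-layer sum of replicate 6). In those fits Mllt10 ran from -0.035 to 0.17 between RGCs and IPCs. Between cycling and non-cycling RGCs, Dot1l ran from -0.036 to 0.20 and Aff3 from -0.0070 to 0.11. Between cycling and non-cycling IPCs, Dot1l ran from -0.035 to 0.53, Mllt3 from -0.068 to 0.33, Mllt6 from -0.037 to 0.59 and Mllt10 from -0.028 to 0.22. Between IPCs and excitatory neurons, Dot1l ran from -0.096 to 0.079 and Mllt1 from -0.31 to 0.090. Between interneurons and excitatory neurons, Mllt6 ran from -0.22 to 0.062. Between layers, Dot1l ran from -0.068 to 0.028 and Mllt1 from -0.36 to 0.0099. The lowest member counts in cycling IPCs were 9 and 8 UMIs for Aff1, 10 and 9 for Mllt6, 16 and 25 for Mllt1 and 35 and 23 for Dot1l.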
